A study of Mus musculus with 18 samples.

Results

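A cassette exon is one that some transcripts of a gene hold and others skip between the same flanking splice sites. The exons described here are the longer cassette exons that break the reading frame: internal exons of the GENCODE M21 mouse annotation, over 51 nt, whose length is not divisible by 3. Each exon's percent spliced in (PSI) was the TPM (length-normalized transcript abundance, scaled to the same sum in every library) of the transcripts that include it, over the TPM of those that include it plus those that skip it. An exon was kept where that total averaged at least 5 TPM over the libraries and its mean PSI lay between 2 and 98%. Of 8196 annotated exons of this kind, 3482 passed the TPM minimum and 2541, in 1958 genes, also passed the PSI limits. They are 2541 of the 5236 cassette exons tested, beside 2028 longer exons that keep the frame and 667 exons of up to 51 nt. The exons were thus selected on measured TPM and PSI. At the thresholds, the nearest exons had mean totals of 5.0 TPM inside and 4.998 TPM outside, mean PSI of 2.002% inside and 1.991% outside, and 97.998% inside and 98.002% outside.

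The samples were 18 RNA libraries from bone marrow cells of C57BL/6 mice, 3 in each of 6 groups. Cells that carried the floxed gene, Ptbp1 fl/fl, were set against Ptbp1 -/- cells in 3 sorted populations. Hematopoietic stem cells (HSC) were Lin- Sca-1+ c-kit+ CD150+ CD48-. The pre-megakaryocyte/erythroid progenitor (preMegE) was c-kit+ and CD150+, and negative for Lin, Sca-1, CD41, FcgRII/III and CD105. The pre-CFU-E, a later erythroid progenitor, shared that gate except for being CD105+. Below, control means Ptbp1 fl/fl and knockout means Ptbp1 -/-. The labels state neither the driver of the deletion nor the age of the mice nor how many mice gave each library. The design text calls the 3 libraries of a group biological replicates. The p-values for PSI rest on the spread between replicates pooled over all 6 groups, with a weight per population. Those for gene counts rest on the libraries of the population tested.

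Removing or adding a stretch of RNA that is not a multiple of 3 nt shifts the reading frame of everything downstream, and the shifted frame usually meets a stop codon soon. A stop codon well before the last exon junction marks a transcript for nonsense-mediated decay (NMD), a pathway that reads the proteins left on exon junctions. Cassette exons that break frame are therefore known as switches for the amount of a protein as well as for its sequence. PTBP1, polypyrimidine tract-binding protein, binds pyrimidine-rich RNA near splice sites and is best known for keeping exons out of the mature transcript. It keeps its paralog PTBP2 low through a frame-breaking cassette exon in Ptbp2, whose PSI is not given here.

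Sequences of exons that carry the main results are shown first. They come from the GENCODE M21 transcripts (GRCm38), 5′ to 3′ on the strand of the gene. The first set shows exons whose loss ends the reading frame early. Each line starts with 15 bases of the upstream exon, joins the downstream exon directly as in the skipped form, and runs to the first in-frame stop, in capitals. The 58-nt Arih1 exon itself (chr9:59403368-59403425, minus strand) is shown whole for comparison. The others lie at chrX:157455994-157456108 (Sms, 115 nt, minus strand), chr4:107165548-107165689 (Tceanc2, 142 nt, minus strand), chr16:22011494-22011552 (Senp2, 59 nt, plus strand), chr4:45301236-45301350 (Trmt10b, 115 nt, plus strand), chr6:83124585-83124777 (Ino80b, 193 nt, minus strand) and chr5:69563083-69563222 (Guf1, 140 nt, plus strand).
Arih1 exon: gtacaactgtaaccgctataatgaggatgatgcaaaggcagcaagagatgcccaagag
Arih1 skipped: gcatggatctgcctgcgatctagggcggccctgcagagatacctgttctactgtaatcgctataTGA
Sms skipped: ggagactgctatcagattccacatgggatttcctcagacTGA
Tceanc2 skipped: attgagtcgttgaaggtcatgctgTGA
Senp2 skipped: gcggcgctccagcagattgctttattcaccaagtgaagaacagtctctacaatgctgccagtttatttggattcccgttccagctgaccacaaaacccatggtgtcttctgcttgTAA
Trmt10b skipped: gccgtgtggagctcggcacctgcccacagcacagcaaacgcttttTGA
Ino80b skipped: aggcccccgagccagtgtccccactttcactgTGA
Guf1 skipped: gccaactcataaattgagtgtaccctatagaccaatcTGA

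The second set shows exons that are added to a longer reading frame, from the exon's first base. Capzb (chr4:139288861-139288973, 113 nt, plus strand), Rab28 (chr5:41626987-41627081, 95 nt, minus strand), Pitpnb (chr5:111385520-111385604, 85 nt, plus strand) and Cdkn2d (chr9:21290425-21290476, 52 nt, minus strand) are shown up to the in-frame stop that lies within the exon, in capitals. The exons of Dock10 (chr1:80503919-80503994, 76 nt, minus strand) and Ttc7 (chr17:87294009-87294066, 58 nt, plus strand) are shown whole, since the frame runs through them to a stop further on.
Capzb exon to stop: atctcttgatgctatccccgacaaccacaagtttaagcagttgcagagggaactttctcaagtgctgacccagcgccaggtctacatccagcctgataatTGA
Rab28 exon to stop: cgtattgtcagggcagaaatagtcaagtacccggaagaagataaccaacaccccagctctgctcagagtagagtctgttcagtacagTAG
Pitpnb exon to stop: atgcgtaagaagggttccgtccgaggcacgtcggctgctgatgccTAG
Cdkn2d exon to stop: gtgccctctTGA
Dock10 exon: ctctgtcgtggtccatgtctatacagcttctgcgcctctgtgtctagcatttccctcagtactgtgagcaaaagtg
Ttc7 exon: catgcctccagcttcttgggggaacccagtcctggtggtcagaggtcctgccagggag

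The libraries held 15956408 to 29226287 estimated reads. Ptbp1 fell in every population, from a mean of 204 ± 13 to 95.8 ± 8.55 CPM (counts scaled to the library total) in HSC, from 723 ± 102 to 210 ± 27.8 CPM in preMegE and from 1215 ± 108 to 303 ± 11.2 CPM in pre-CFU-E (SD, n = 3 each). Its paralog Ptbp2 averaged 54.7, 18.5 and 9.83 CPM in the control groups and 113, 85.5 and 137 CPM in the knockout groups. The summed erythroid markers fixed for pre-CFU-E lay at 101 to 147 CPM in HSC, 1326 to 1556 CPM in preMegE and 6364 to 7973 CPM in pre-CFU-E. The HSC libraries held 6264 to 8393 CPM of Xist and those of the other populations at most 1.13 CPM. In the step from HSC to preMegE the sex of the mice and the cell type therefore cannot be told apart. The same holds where a knockout effect is compared between HSC and preMegE. Knockout HSC replicate 2 differed from the other 2 of its group by a median of 11.63 PSI points, against 8.02 to 9.75 points for the other HSC libraries. The summed markers of other cell types ranged over the libraries from 0.969 to 13.9 CPM for 6 macrophage genes, 1.13 to 72.9 CPM for 7 granulocyte and monocyte genes, 1.44 to 15.2 CPM for 5 B cell genes and 0.208 to 12.3 CPM for 4 T cell genes, with at most 2 genes of a list at 0 in a group. Between control HSC and control preMegE the granulocyte and monocyte sum went from 8.68 to 16.7 CPM to 37.3 to 57.1 CPM, carried by Mpo (mean 3.94 and 42.0 CPM), while Prtn3, S100a8 and Ly6c2 were lower in preMegE. The T cell sum went from 9.07 to 11.4 CPM to 0.977 to 1.58 CPM, carried by Cd3d (mean 9.65 and 0.903 CPM). The part of these shifts in that step was not tested. In these bulk samples, fewer cells of a type and less RNA per cell cannot be told apart.

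The 2541 exons were short, with a median length of 115 nt (quartiles 85 and 154 nt, range 52 to 4720 nt) and a median GC content of 48.6%. The remainder after division by 3 was 1 nt in 1257 exons and 2 nt in 1284. In 443 genes there were 2 or more such exons, up to 7 in a gene, and these share transcripts and are not independent. By position, 1907 exons lay within a coding sequence, 376 in a 5′ UTR and 7 in a 3′ UTR. A further 122 held the start codon and 20 the stop codon, and for 109 no complete coding transcript covered the exon.

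To find what each exon does to the reading frame, the longest annotated coding transcript that includes or skips it was read again with the exon removed or added. A stop codon counted as early where it lay over 50 nt before the last exon junction, the usual rule for NMD. Skipping gave an early stop for 882 exons (34.7%) and inclusion gave one for 708 (27.9%). For 314 exons (12.4%) the shifted frame ended elsewhere, giving another end of the protein. The other exons lay outside the coding part (383), held the start or stop codon (142) or were in no complete coding transcript (109). For 2 more no stop was found in the shifted frame, and for 1 the stop stayed the same. The annotation named the main skipping transcript as an NMD target for 487 of the 882 exons, and the main including transcript for 390 of the 708.

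PSI spanned the full range in every group. The median over all 2541 exons was near 50 in all groups, at 52.5% in control HSC, 52.5% in control preMegE and 51.8% in control pre-CFU-E, and 55.3, 52.3 and 52.6% in the knockouts in the same order. The shape of the distribution differed: 62.9% of exons had a group mean between 10 and 90% in control HSC, 42.5% in control preMegE and 36.6% in control pre-CFU-E. The knockout shares were 65.9, 44.9 and 36.3%. The spread between replicates moved with this, since the median SD of an exon was 8.69 points in control HSC, 3.06 in control preMegE and 2.39 in control pre-CFU-E, and 10.68, 4.45 and 2.32 points in the knockouts. Its part in the wider range of HSC was not tested. Over all libraries, 21.1% of values were exactly 0 or 100%, which is how the estimated reads were divided between transcripts and does not show that the other form was absent.

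Split by their effect on the frame, the exons leaned toward the form without the early stop. Exons whose skipping gives an early stop had a median PSI of 86.1% in control HSC, 93.4% in control preMegE and 95.1% in control pre-CFU-E, and 84.8, 92.9 and 95.5% in the knockouts. Exons whose inclusion gives an early stop had medians of 14.2, 5.3 and 3.5% in the controls and 15.7, 6.5 and 3.2% in the knockouts. Exons outside the coding part, where no frame is broken, had medians of 23.6, 13.5 and 10.6% in the controls and 24.5, 15.9 and 10.1% in the knockouts. The 314 exons with another end (227 by skipping and 87 by inclusion) had medians between 74.9 and 81.1%. The split follows whether the longest coding transcript includes or skips the exon, and the part of this in the lean was not tested. Longer exons that keep the frame were not split in this way and had medians between 49.1 and 54.1% in the 6 groups. These medians describe the exons and carry no test.

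**Figure D1:**
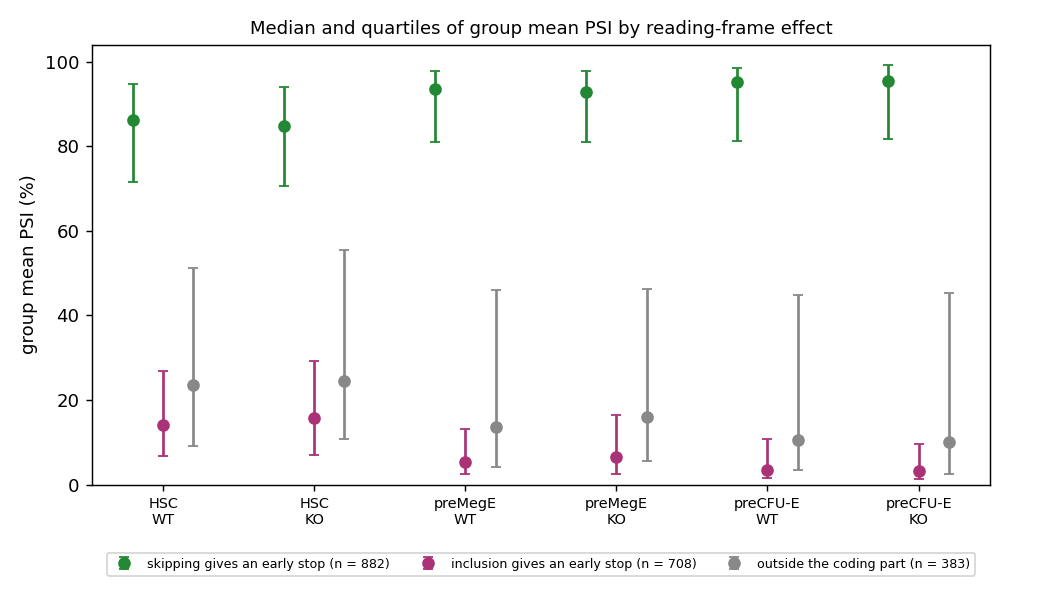
Group mean PSI (%) of the exons in the 6 groups, as medians with quartile bars, for 882 exons whose skipping gives an early stop, 708 whose inclusion gives one and 383 outside the coding part. The first set rises from 86.1% in control HSC to 95.1% in control pre-CFU-E, the second goes down from 14.2 to 3.5%, and control and knockout medians of a population lie close together.

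Taking both kinds of exon together, the share of TPM in the form with the early stop could be followed over 1590 exons. In control HSC the median share of the 3 libraries was 12.1, 11.5 and 12.5%, and in knockout HSC 12.3, 13 and 12.2%. In preMegE it was 6.5, 5.2 and 5.0% in the controls and 6.8, 5.3 and 5.3% in the knockouts. In pre-CFU-E it was 4.9, 3.5 and 3.0% in the controls and 3.3, 3.4 and 3.6% in the knockouts. All 6 HSC libraries were above all 12 libraries of the later populations, while control and knockout overlapped within each population. The share was lower in control preMegE than in control HSC for 1113 exons and higher for 457, with a median change of -4.97 points. From control preMegE to control pre-CFU-E it was lower for 1023 exons and higher for 511, with a median change of -0.92 points. Between knockout and control the median change was 0.72 points in HSC, 0.2 in preMegE and -0.11 in pre-CFU-E. A lower share can come from splicing or from decay of the early-stop form, which a level of RNA does not separate. The fall was not particular to early-stop forms. Exons outside the coding part also had a lower median PSI along the controls, at 23.6% in HSC, 13.5% in preMegE and 10.6% in pre-CFU-E. The HSC libraries also had the widest replicate spread, given above, and the part of that spread in the share was not tested.

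In pre-CFU-E, loss of Ptbp1 changed the PSI of 23 of the 2535 exons with a test, 18 higher and 5 lower. A call needed a Benjamini-Hochberg adjusted p under 0.05, over all cassette exons, and a change of at least 10 points, in limma's test on logit PSI. Of the 13 with totals of at least 5 TPM in both groups, 12 were included more in the knockout, among them exons of Rnps1, Capzb, Ift20, Arih1, Sms and Dock10, and 1 less, in Zfp317. The share called was 0.907% of the exons, against 2.16% of all cassette exons (1.47% higher and 0.688% lower), 2.66% of the longer exons that keep frame and 5.40% of the short exons. The difference between classes was not tested, and an unadjusted p under 0.05 was reached by 230 of the exons (9.07%, against 12.4% of all cassette exons). In 21 of the 23 the 3 control and 3 knockout values did not overlap, which a call on these same values makes likely. The share of all exons without overlap was not counted. Without weights for the spread of each population 5 exons were called, and with edgeR on including and skipping reads 3. Of the 13 exons, those of Capzb, Arih1 and Dock10 passed without the weights, and those of Capzb and Tpm3 with edgeR.

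**Figure D2:**
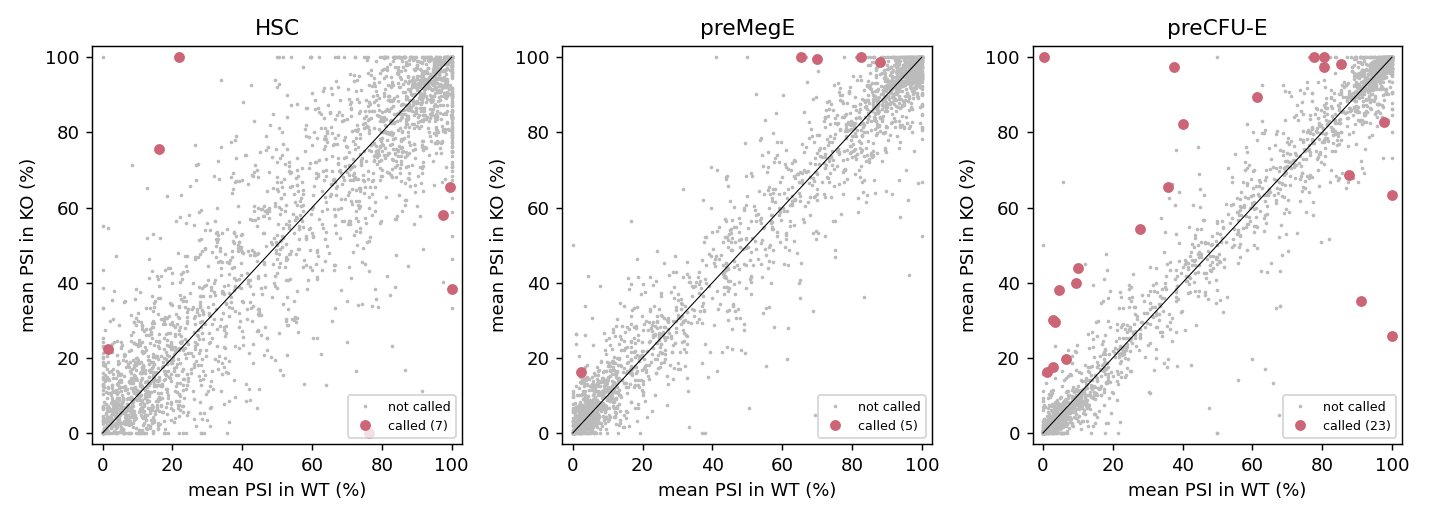
Mean PSI (%) of each exon in the control (x axis) and knockout (y axis) libraries of HSC, preMegE and pre-CFU-E, with called exons in red. There are 7 called exons in HSC, 5 in preMegE and 23 in pre-CFU-E, and the cloud of exons is widest in HSC.

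Rnps1 encodes a splicing protein that binds the exon junction complex and takes part in NMD. Its 181-nt exon (chr17:24418038-24418218) holds the start codon of the longest reading frame. In pre-CFU-E it was included at 27.0, 25.2 and 31.0% in the controls and at 48.7, 57.1 and 56.9% in the knockouts, and every knockout value was above every control value. The change was 26.5 points (limma adjusted p = 0.00637). In HSC, PSI was 6.36, 21.6 and 20.8% in the controls and 59.6, 86.6 and 80.6% in the knockouts, a change of 59.4 points (limma adjusted p = 0.0345). The preMegE groups also did not overlap, with 23.8, 16.8 and 19.8% against 41.1, 38.1 and 40.0%, but the change of 19.6 points did not pass (limma adjusted p = 0.17). Counts of the whole gene differed by at most 0.26 on the log2 scale in any population, with edgeR adjusted p of 0.149 or more. The HSC call was lost without control replicate 1, control replicate 3 or knockout replicate 3 (limma adjusted p up to 0.113). It was also lost when any intron spanning the exon counted as skipping (26.2 points, limma adjusted p = 0.256).

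Capzb encodes the beta subunit of the actin capping protein, and its 113-nt exon is one of its alternative ends, with the stop codon shown in capitals above. In pre-CFU-E the controls had 1.13, 1.68 and 1.04% and the knockouts 16.7, 16.8 and 14.8%. The change of 14.8 points had the smallest adjusted p of the 13 exons with 5 TPM or more in both groups (limma adjusted p = 3.7e-06). In HSC, PSI was 2.04, 2.29 and 0.323% in the controls and 35.3, 12.6 and 18.9% in the knockouts (20.7 points, limma adjusted p = 0.0414). In preMegE it was 1.12, 0.762 and 0.85% against 8.08, 5.61 and 7.17%, which passed the p threshold but not the 10-point minimum (limma adjusted p = 0.00548). The exon was thus higher in all 9 knockout libraries than in any of the 9 controls. The HSC call was lost without any 1 of the HSC libraries except knockout replicate 2 (limma adjusted p up to 0.148).

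Arih1 encodes a ubiquitin ligase that works with cullin-RING ligases. Without its 58-nt exon, the frame of 555 amino acids ends after 400. In control preMegE, PSI was 84.2, 78.8 and 85.0%, and in all 3 knockout libraries it was 100%. The change was 17.4 points (limma adjusted p = 0.0115). In pre-CFU-E the controls had 84.4, 80.5 and 76.8% and the knockouts 100, 100 and 92.2% (16.8 points, limma adjusted p = 0.00349). All 6 HSC libraries were at 100%, so no skipped form was assigned in HSC of either genotype, at mean totals of 30.5 and 39.0 TPM. The preMegE call was lost without any 1 of the 3 control libraries (limma adjusted p up to 0.0998). From estimated reads in place of TPM, which leaves out the correction for transcript length, the change was 0.6 points in preMegE and 0.7 points in pre-CFU-E (limma adjusted p = 0.0712 and 0.00384), under the 10-point minimum in both. Both calls were also lost with edgeR (adjusted p = 0.282 and 0.735), and that in pre-CFU-E with only its own libraries in the fit (limma adjusted p = 0.256).

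Pbrm1 encodes a bromodomain subunit of the PBAF chromatin remodelling complex, and its 113-nt exon (chr14:31023067-31023179) lies in the 5′ UTR. In preMegE, PSI was 1.5, 2.86 and 2.78% in the controls and 23.3, 15.1 and 10.3% in the knockouts (13.8 points, limma adjusted p = 0.0146). In pre-CFU-E it was 2.12, 2.59 and 3.49% against 18.3, 17.3 and 17.1% (14.8 points, limma adjusted p = 0.000653). In HSC the means were 5.23 and 11.3% (limma adjusted p = 0.919). The preMegE call was lost without any 1 of the 3 control libraries (limma adjusted p up to 0.105). From estimated reads the changes were 6.3 points in preMegE and 6.7 points in pre-CFU-E, under the 10-point minimum.

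Rnps1 and Capzb were called in HSC and in pre-CFU-E, and Arih1 and Pbrm1 in preMegE and in pre-CFU-E. These pairs of comparisons share no library, but each exon's spread came from 1 fit of all 18 libraries, so the calls are not independent. With only the population compared in the fit, Rnps1 and Capzb were lost in HSC (limma adjusted p = 0.36 for both). Arih1 was then lost in pre-CFU-E and Pbrm1 in preMegE (limma adjusted p = 0.256 and 0.131). As a share of each list, 3 of the 7 HSC calls and 2 of the 5 preMegE calls were among the 23 of pre-CFU-E, the third in HSC being an exon of Ptbp1 itself. That 196-nt exon (chr10:79856339-79856534) lies in the targeted gene, and its including and skipping transcripts summed to 2.31 TPM in knockout HSC, 0 in knockout preMegE and 0.261 in knockout pre-CFU-E. Its PSI of 100% in the knockouts therefore rests on almost no TPM.

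Other exons called in pre-CFU-E differed from control by similar amounts in the other populations without passing there. Ift20 encodes an intraflagellar transport protein found at the Golgi, and its 229-nt exon (chr11:78538510-78538738) lies in the 5′ UTR. PSI was 37.5, 40.4 and 42.2% in control pre-CFU-E and 78.3, 85.5 and 83.1% in knockout pre-CFU-E (42.3 points, limma adjusted p = 0.00287). The differences in HSC and preMegE were 41.0 and 28.8 points (limma adjusted p = 0.382 and 0.285), and in both the groups did not overlap. From estimated reads the pre-CFU-E change was 26.3 points. Hnrnpa2b1 encodes an RNA-binding protein, and its 136-nt exon (chr6:51461920-51462055) lies in the 3′ UTR, where the annotation marks the including transcript as an NMD target. It was at 34.6, 34.9 and 38.1% in control and 67.9, 63.4 and 65.1% in knockout pre-CFU-E (29.6 points, limma adjusted p = 0.0029). Its differences were 20.8 points in HSC and 18.8 points in preMegE (limma adjusted p = 0.907 and 0.253).

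Sms encodes spermine synthase, and without its 115-nt exon the frame of 366 amino acids ends after 258. In pre-CFU-E, PSI was 61.0, 57.3 and 65.5% in the controls and 90.6, 91.9 and 85.7% in the knockouts (28.1 points, limma adjusted p = 0.0115). The groups were just as far apart in preMegE, with 66.5, 58.2 and 55.6% against 94.4, 94.3 and 81.4% (29.9 points, limma adjusted p = 0.0554). In HSC the values were 62.3, 74.3 and 60.6% against 87.7, 100 and 83.1% (24.6 points, limma adjusted p = 0.642). Counts of the whole gene also rose in pre-CFU-E, by 0.41 on the log2 scale (edgeR adjusted p = 0.0194). The exon call was lost without control replicate 2 or knockout replicate 2 (limma adjusted p up to 0.0659). From estimated reads the change was 15.4 points.

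The 76-nt exon of Dock10 passed both thresholds in pre-CFU-E alone. It was at 1.4, 3.96 and 3.08% in control and at 30.7, 29.6 and 29.6% in knockout pre-CFU-E (27.2 points, limma adjusted p = 1.76e-05). In preMegE it was at 1.59, 0.828 and 0.189% against 8.22, 6.62 and 6.14%, a change of 6.1 points (limma adjusted p = 0.0208). In HSC, knockout values of 1.61, 0.229 and 6.14% overlapped the control values of 2.71, 3.94 and 3.87%.

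**Figure D3:**
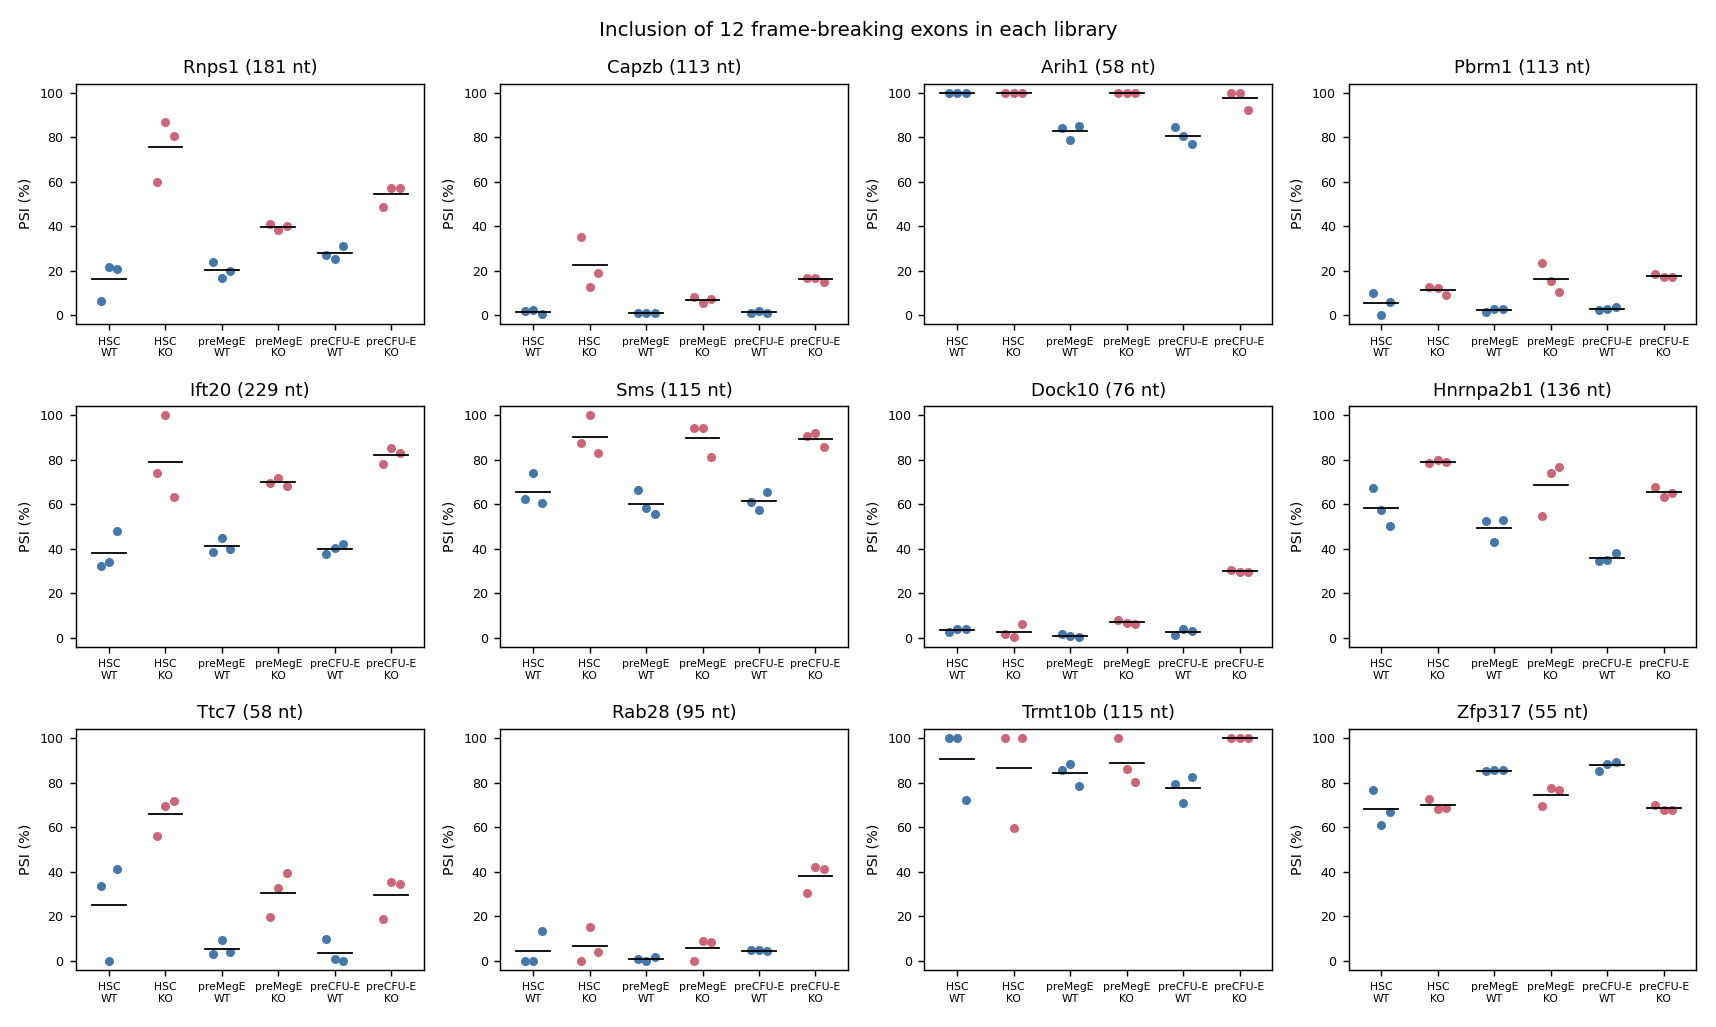
PSI (%) of 12 exons in each of the 18 libraries, with control libraries in blue, knockout libraries in red and a line at each group mean. Capzb, Rnps1 and Ift20 are higher in the knockout in all 3 populations, Arih1 is at 100% in all HSC libraries, and Zfp317 is lower in knockout pre-CFU-E.

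Several further exons were called in pre-CFU-E. Rab28, a small GTPase, took up a 95-nt exon with its own stop codon, which gives another end of the protein, at 4.65, 4.78 and 4.16% in control and 30.5, 42.3 and 41.3% in knockout pre-CFU-E (33.5 points, limma adjusted p = 0.0103). Trmt10b, a tRNA methyltransferase, reached 100% in all 3 knockout pre-CFU-E libraries from 79.3, 71.1 and 82.5% in the controls (22.4 points, limma adjusted p = 0.00549). Its total was lower beside this, at 10.6 TPM in control and 5.45 TPM in knockout. The Ttc7 exon, in a scaffold of a phosphatidylinositol kinase complex, gives an early stop when included. It was at 9.66, 0.942 and 0% in control and 18.6, 35.3 and 34.5% in knockout pre-CFU-E (25.9 points, limma adjusted p = 0.0136). Its groups did not overlap in HSC or preMegE either, where the changes of 40.9 and 25.2 points did not pass (limma adjusted p = 0.919 and 0.33). The Ttc7 call was lost without control replicate 2 or 3, or knockout replicate 2 or 3 (limma adjusted p up to 0.0696). From estimated reads the change was 10.7 points for Trmt10b and 14.0 points for Ttc7.

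Zfp317, a zinc finger gene, was the one exon with 5 TPM or more in both groups that was lower in knockout pre-CFU-E. Its 55-nt exon (chr9:19632334-19632388) in the 5′ UTR was at 85.3, 88.5 and 89.5% in the controls and 70.2, 67.6 and 67.9% in the knockouts (limma adjusted p = 0.000653, a change of -19.2 points). The tropomyosins, which coat actin filaments, had a called exon in both Tpm3 and Tpm1. The 79-nt exon of Tpm3 (chr3:90091013-90091091) was at 8.0, 5.9 and 6.09% in control and 21.5, 18.5 and 19.6% in knockout pre-CFU-E (13.2 points, limma adjusted p = 0.000907). The 76-nt exon of Tpm1 (chr9:67031951-67032026) was at 77.4, 86.1 and 92.9% against 99.7, 96.9 and 98% (12.7 points, limma adjusted p = 0.0168). For Tpm1 the including and skipping transcripts together went from 4.64 to 18.2 TPM, while counts of the whole gene fell by 0.50 on the log2 scale (edgeR adjusted p = 0.00998). The Tpm1 exon's call was lost without control replicate 1, control replicate 2 or knockout replicate 1 (limma adjusted p up to 0.0853). Its change was 80.9 points when any spanning intron counted as skipping, and 9.6 points, under the minimum, from estimated reads.

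In 10 of the exons called in pre-CFU-E the total was under 5 TPM in at least 1 group. They lay in Ptbp1, Mdfi, Lrrc61, Pdlim7, Adamts10, Phf21a, Cers5, Meis1, Clca3a1 and Tpm1. Cers5, a ceramide synthase, took up its exon at 41.4, 34.5 and 43.8% against 13, 9.97 and 5.64% in the controls, at totals of 1.82 and 2.23 TPM. Pdlim7, a PDZ and LIM domain protein, was included less, at 33.1, 27.4 and 44.6% against 81.6, 91.8 and 100% (limma adjusted p = 0.0183), and counts of its gene rose by 0.93 on the log2 scale (edgeR adjusted p = 0.0324). For Mdfi only 1 control library had any TPM for the exon, so its control value is that of a single library.

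Of the 23 exons, 10 had a form with an early stop, and in 6 of these the knockout had less of that form. Over all 1589 such exons with a value, 829 (52.2%) had less of it in the knockout. Among the called exons the move was away from the early stop in Arih1, Sms, Trmt10b, Tpm1, Meis1 and Mdfi, and toward it in Ttc7, Pdlim7, Adamts10 and Clca3a1. For Tpm1 this covers only transcripts that skip the exon between the same splice sites. Its change was 80.9 points with any spanning intron as skipping, and the frame of those other forms was not read. Leaving out 1 library at a time, 15 of the 23 exons were called in every refit, and the count of called exons ran from 23 to 32. When only the 6 pre-CFU-E libraries were fitted, 13 of the 23 were called.

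In preMegE, 5 exons were called of 2539 tested, all higher in the knockout (0.197%, against 0.65% of all cassette exons, 0.516% higher and 0.134% lower). Beside Arih1 and Pbrm1 they lay in Tceanc2, Senp2 and Tmem134, and 196 exons (7.72%, against 8.85% of all) had an unadjusted p under 0.05. Tceanc2 encodes a protein with a domain of the transcription elongation factor TFIIS. Its 142-nt exon was at 54.5, 81.4 and 60.0% in the controls and at 100% in all 3 knockouts (34.7 points, limma adjusted p = 2.38e-05). In pre-CFU-E it went the other way without passing, from 65.9, 42.4 and 40.4% to 35.3, 45.4 and 41.6% (limma adjusted p = 0.741), and all HSC libraries were at 100%. Senp2 encodes a protease that removes the protein tag SUMO. Its 59-nt exon was at 60.2, 72.9 and 76.4% in the controls and 98.4, 100 and 100% in the knockouts (29.6 points, limma adjusted p = 0.00998). In pre-CFU-E the Senp2 values were almost the same in both genotypes, at 81.7, 71.5 and 62.0% and at 82.7, 71.8 and 63.4%. The Tmem134 exon (chr19:4127760-4127836), in transcripts without a complete coding sequence, was at 93.4, 83.4 and 86.8% against 100, 98 and 97.8% (10.7 points, limma adjusted p = 0.0292).

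The 3 preMegE exons with a form that has an early stop, in Arih1, Tceanc2 and Senp2, all moved away from it, as did 44.1% of all 1590 such exons, called or not. Only Tceanc2 was called in every refit without 1 library. From estimated reads its change was 6.0 points and that of Tmem134 7.4 points, under the minimum. The call of Senp2 was lost without any 1 of the 3 control libraries (limma adjusted p up to 0.0724), and that of Tmem134 without control replicate 2 or 3 (limma adjusted p up to 0.213). The number of called exons was 2 without control replicate 3, and 10 without knockout replicate 3 or knockout replicate 1, the preMegE library that differed most from its group, by a median of 5.08 points against 2.57 to 3.81 points for the others. With only the 6 preMegE libraries in the fit, 3 of the 5 were called among 10 in all. Without array weights 2 exons were called, with edgeR 1, with an offset of 0.05 on the logit 12 and on PSI without the logit 17.

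In HSC, 7 exons of 2540 were called, 3 higher and 4 lower (0.276%, against 0.229% of all cassette exons, 0.134% higher and 0.0956% lower), and 140 (5.51%, against 6.12% of all) had an unadjusted p under 0.05. The count was 44 without array weights and 2 with an offset of 0.05 on the logit. The exons of Rnps1, Capzb and Ptbp1 were higher, as above. Those of Itgb2, Atf7ip, Nudt7 and Gdap2 were lower. Itgb2 encodes the beta chain of the leukocyte integrins, and its 245-nt exon (chr10:77559479-77559723) was at 100% in all 3 controls and at 38.0, 0 and 76.6% in the knockouts (limma adjusted p = 0.0344, a change of -61.8 points). Atf7ip encodes a partner of the histone methyltransferase SETDB1. Its 1676-nt exon (chr6:136559764-136561439), which holds the start codon, was at 100, 100 and 92.3% in the controls and 48.7, 53.5 and 71.4% in the knockouts (limma adjusted p = 0.0345, a change of -39.6 points). The exon of Nudt7, a peroxisomal hydrolase of coenzyme A (chr8:114136338-114136491), was at 98.4, 100 and 100% against 60.8, 87.9 and 47.8% (limma adjusted p = 0.0379). The exon of Gdap2, in the 5′ UTR (chr3:100168940-100169085), was at 75.1, 69.7 and 83.9% against 0% in all 3 knockouts, at a knockout total of 2.59 TPM (limma adjusted p = 0.0445).

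None of these 4 lower exons was called in another population, where Itgb2, for example, stayed between 99.2 and 100% in all 12 libraries. Of the 7 exons called in HSC, 2 had a form with an early stop, Itgb2 and Nudt7, and both moved toward it. Over all 1589 such exons with a value in HSC, called or not, 855 moved toward it. The HSC calls were the least stable. Only that of the Ptbp1 exon held in every refit without 1 library. The call of Itgb2 was lost without any 1 control (limma adjusted p up to 0.0777), Atf7ip without control replicate 1, control replicate 2 or knockout replicate 1 (limma adjusted p up to 0.117) and Nudt7 without any library except knockout replicate 2 (limma adjusted p up to 0.136). Gdap2 was lost without any 1 of the 6 (limma adjusted p up to 0.159). The count was 3 without control replicate 1 and 10 without knockout replicate 2 or knockout replicate 3. With only the 6 HSC libraries in the fit, 1 of the 7 was called. From estimated reads the changes were -4.3 points for Atf7ip (limma adjusted p = 0.351), -9.0 points for Gdap2 (limma adjusted p = 0.505) and -19.4 points for Nudt7, which kept its call. When any spanning intron counted as skipping, Atf7ip was at -10.1 points (limma adjusted p = 0.975) and Itgb2 at -49.4 points (limma adjusted p = 0.542). The Itgb2 call was also lost with edgeR on including and skipping reads (adjusted p = 0.116).

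A test of whether the knockout effect itself differed between populations called 1 exon for preMegE against HSC (0.0765% of all cassette exons were called) and 2 for pre-CFU-E against preMegE (0.115% of all). These were in Mettl15, and in Tceanc2 and Meis1. Their values stand in the closing section. Apart from these, that an exon was called in 1 population and missed in another does not show that its response differed.

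The exons of genes that themselves control splicing were counted from fixed lists. The 13 genes of the list of SR proteins and CLK kinases, which promote exon recognition, held 20 such exons, none called between knockout and control in any population. Exons of this list are among the known switches with an early stop. In Srsf6 the 268-nt exon was at 11.9, 7.58 and 10.3% in control and 11, 6.55 and 8.6% in knockout preMegE, and at 7.22, 6.21 and 3.74% against 3.0, 3.75 and 2.85% in pre-CFU-E. The Srsf11 exon was below 9% in all preMegE and pre-CFU-E libraries and at 5.74 to 30.5% in HSC. Clk1 kept its 91-nt exon at 80.1, 77.4 and 67.1% in control and 62.9, 88.8 and 58.9% in knockout preMegE, which overlap. In HSC, Clk1 was at 47.0, 46.7 and 65.2% against 33.6, 33.2 and 19.2%, which do not overlap (limma adjusted p = 1.0).

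Of 19 exons in 16 genes for hnRNPs and the PTB family, 1 was called higher in HSC, that of Ptbp1, and 2 in pre-CFU-E, those of Ptbp1 and Hnrnpa2b1. The Hnrnph1, Hnrnpf, Hnrnpd and Syncrip exons, which had the largest totals on this list, were not called in any knockout comparison. Hnrnpd, an AU-rich element binding protein, had 7.87, 9.61 and 8.68% in control HSC and 5.64, 3.55 and 5.27% in knockout HSC. Syncrip stayed between 51.9 and 78.5% in all 18 libraries. The 5 genes for NMD and the exon junction held 7 exons. Between knockout and control the Rnps1 exon given above was the only one called, in HSC and in pre-CFU-E. Another Rnps1 exon (24415041-24415162 on the same chromosome) was called in the step from control HSC to control preMegE, at -27.5 points. That call was lost with only the populations compared in the fit (limma adjusted p = 0.0627) and without the logit (limma adjusted p = 0.0839). Smg1, the kinase that starts NMD, kept its early-stop exon at 0.395 to 5.07% in all libraries. The Magohb exon was at 100% in 16 of the 18 libraries, with 38.0% in knockout HSC replicate 1 and 67.0% in control preMegE replicate 1.

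On the remaining lists few exons were called between knockout and control, and all of them in pre-CFU-E, where 0.907% of the exons and 2.16% of all cassette exons were called. Of 71 exons in 59 genes for membrane traffic and the cytoskeleton, 3 were called higher, in Rab28, Tpm1 and Tpm3. The tropomyosins also stand on the list of erythroid genes, which are part of the red cell membrane skeleton, where they were the 2 called of 9 exons in 8 genes. Phf21a was the 1 call among 56 exons in chromatin genes, and Meis1 the 1 call among 21 in stem cell and megakaryocyte genes. None was called among 33 exons of other splicing regulators, 17 of the core spliceosome, 36 of ribosome and translation genes, 22 of ribosome biogenesis, 73 of the cell cycle and DNA repair and 40 of mitochondria and metabolism. The list medians of the pre-CFU-E change lay between -0.93 and 0.36 points, beside 0.0 over all the exons.

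The genes that hold the exons were also compared by their counts. In HSC, 1 of 1958 was called, Ptbp1 (0.0511%, against 0.0247% of all genes). In preMegE 5 of 1957 were called (0.255%, against 0.219% of all, 0.115% higher and 0.103% lower): Atat1 was higher, and Ptbp1, Dnmt3b, Lrrcc1 and Necap2 were lower. In pre-CFU-E 48 of 1948 were called, 16 higher and 32 lower (2.46%, against 1.84% of all, 0.86% higher and 0.976% lower). Both an exon and the counts of its gene were called for Ptbp1 in HSC and for Ptbp1, Pdlim7, Tpm1, Clca3a1 and Sms in pre-CFU-E. For the other 18 exons called in pre-CFU-E the counts of the gene did not pass, and for Arih1 and Capzb they differed by -0.02 and 0.13 on the log2 scale (edgeR adjusted p = 0.953 and 0.547).

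Among control cells, the step from HSC to preMegE had the most calls: 108 of the 2541 exons, 45 higher and 63 lower in preMegE (4.25%, against 4.2% of all cassette exons, with 1.7% higher and 2.5% lower, 3.6% of the longer exons that keep frame and 5.85% of the short ones). The share of the frame-breaking exons was thus near the background. An unadjusted p under 0.05 was reached by 515 exons (20.3%, against 19.9% of all). In 101 of the 108 the groups did not overlap, which a call on these same values makes likely, and the share of all exons without overlap was not counted. Of the 66 called exons that have a form with an early stop, 47 moved away from it and 19 toward it, beside 1113 of all 1590 such exons (70.0%) that moved away from it in this step. By kind, 27 of the exons whose skipping gives an early stop were higher in preMegE and 14 lower, and 5 of those whose inclusion gives one were higher and 20 lower.

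By TPM, several of these exons went from a minor to a nearly complete form. Dus4l, a tRNA dihydrouridine synthase, had its 122-nt exon (chr12:31648766-31648887) at 19.8, 13.7 and 45.3% in control HSC and at 100% in all 3 control preMegE libraries (73.7 points, limma adjusted p = 0.0417). Eipr1, a partner of a vesicle tethering complex (exon at chr12:28859252-28859388), went from 19.5, 24.5 and 37.5% to 100% in all 3 (72.8 points, limma adjusted p = 0.00113). Ino80b, a subunit of the INO80 chromatin remodelling complex, went from 19.0, 45.5 and 27.0% to 100% in all 3 (69.5 points, limma adjusted p = 0.00136). C1qtnf12, a secreted protein of the C1q and TNF family (exon at chr4:155965594-155965702), went from 23.5, 26.2 and 47.6% to 96.8, 100 and 100% (66.5 points, limma adjusted p = 0.00125). In each of these, skipping shifts the frame, and the PSI in control pre-CFU-E stayed at 93.4% or more in every library. From estimated reads, without the length correction, the changes were 20.4 points for Dus4l, 24.6 points for Eipr1 and 30.7 points for C1qtnf12.

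Other exons went the opposite way. Cdkn2d encodes an inhibitor of the cell cycle kinases CDK4 and CDK6, and its 52-nt exon ends the frame after 50 amino acids in place of 166. It was at 41.1, 79.9 and 97.1% in control HSC and at 0, 1.98 and 0% in control preMegE (limma adjusted p = 0.00125, a change of -72.0 points). In knockout HSC it was at 35.3, 0 and 14.5%, which did not pass against the controls (limma adjusted p = 0.295). Atf7ip went from 100, 100 and 92.3% to 25.3, 22.9 and 29.0% (limma adjusted p = 5.11e-05, a change of -71.7 points). In the cell cycle list, Cdk4 went from 100, 100 and 80.2% to 69.6, 72.7 and 73.6% (limma adjusted p = 0.0164), while the 5′ UTR exon of Cdk1 rose from 48.9, 51.3 and 48.5% to 90.4, 86.8 and 89.6% (39.3 points, limma adjusted p = 0.0177). On the erythroid list, Mpp1, a membrane scaffold of red cells, had an early-stop exon at 19.0, 29.9 and 7.52% in control HSC and at 0% in control preMegE (limma adjusted p = 0.0225). Rhag, of the Rh complex, went from 100% in all 3 HSC controls, at a total of only 2.39 TPM, to 87.8, 90.1 and 91.4% (limma adjusted p = 0.0105).

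The step from control preMegE to control pre-CFU-E had 3 calls of 2536 exons (0.118%, against 0.306% of all cassette exons, 0.191% higher and 0.115% lower), all higher in pre-CFU-E, and 225 exons (8.87%, against 9.67% of all) with an unadjusted p under 0.05. Pitpnb encodes a phosphatidylinositol transfer protein, and its 85-nt exon, with its own stop codon, was at 67.8, 71.1 and 69.9% in control preMegE and 87.8, 87.0 and 87.6% in control pre-CFU-E (17.9 points, limma adjusted p = 0.0113). Knockout preMegE was at 48.5, 52.6 and 53.4% and knockout pre-CFU-E at 84.6, 80.8 and 85.7%, below the controls in both without passing (limma adjusted p = 0.111 and 0.517). Guf1, a mitochondrial translation factor, was called at both steps. It was at 31.8, 34.1 and 45.9% in control HSC, 77.6, 88.8 and 80.4% in control preMegE and 93.4, 96.2 and 95.4% in control pre-CFU-E (45.0 points, limma adjusted p = 0.0164, and 12.7 points, limma adjusted p = 0.0463). Fhl1, a LIM domain gene, was the third, at totals of 1.03 and 0.151 TPM, so that its values rest on little RNA.

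**Figure D4:**
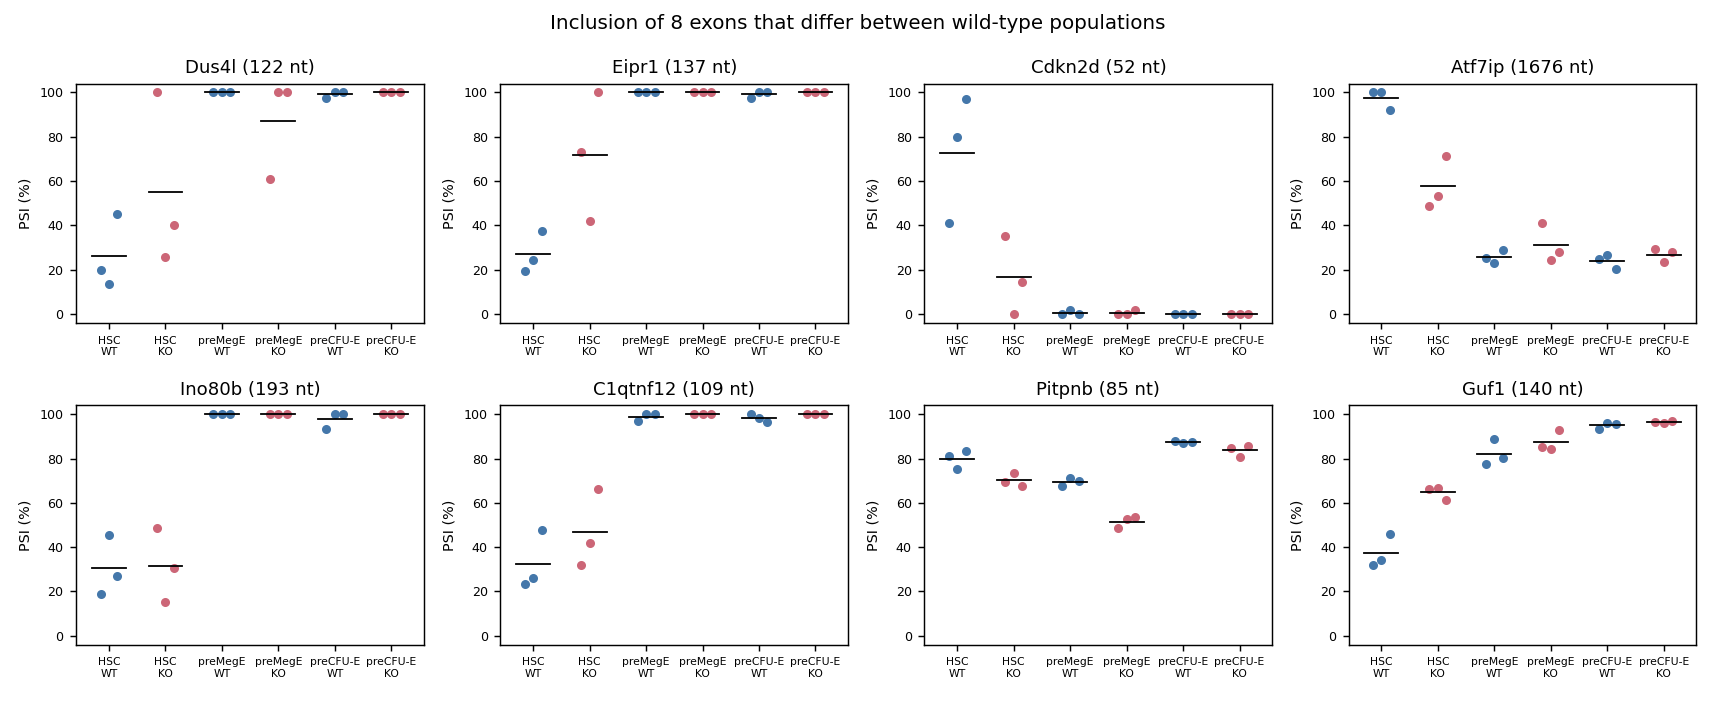
PSI (%) of 8 exons in each of the 18 libraries, with control libraries in blue, knockout libraries in red and a line at each group mean. Dus4l, Eipr1, Ino80b, C1qtnf12 and Guf1 are low in control HSC and high in the later populations, and Cdkn2d and Atf7ip are high in control HSC and low later.

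The calls of Eipr1, Ino80b, C1qtnf12, Cdkn2d and Atf7ip held in every refit without 1 library. When any spanning intron counted as skipping, Atf7ip was at -24.6 points and lost the call (limma adjusted p = 0.0524), and from estimated reads it was at -14.0 points and kept it. From estimated reads Dus4l was at 20.4 points, Eipr1 at 24.6 and C1qtnf12 at 30.7, all called. Mpp1 at -1.1 points, Rhag at -6.8 and Guf1 at the second step, at 7.9, lost the call. Without retained-intron transcripts Cdk1 was at 13.6 points. The Dus4l call was lost without any 1 of the 6 libraries (limma adjusted p up to 0.182). It was also lost with only the populations compared in the fit (limma adjusted p = 0.081), with a 1 TPM minimum (limma adjusted p = 0.051) and with edgeR (adjusted p = 0.052). Cdk1 and Guf1 at the first step were lost without any 1 HSC control (limma adjusted p up to 0.0836 and 0.0944), and Cdk4 without HSC control replicate 1 or 2 (limma adjusted p up to 0.119). Mpp1 was lost without any 1 library except preMegE control replicate 1 (limma adjusted p up to 0.14), and Rhag without any 1 HSC control or preMegE control replicate 1 (limma adjusted p up to 0.0591). Pitpnb was lost without any 1 preMegE control (limma adjusted p up to 0.0927), and Guf1 at the second step without preMegE control replicate 1 or 3 or pre-CFU-E control replicate 2 or 3 (limma adjusted p up to 0.292). Without 1 HSC control, the count at the first step ran from 48 (without replicate 2) to 51, and in all 24 of the 108 exons were called in every refit.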

How the data were processed

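Total RNA of the 18 libraries was extracted with RNeasy micro columns and amplified with the NuGEN Ovation kits, per the labels' protocols. The deposited values are Salmon's TPM and estimated counts per transcript. Salmon 0.12.0 and mm10 (GRCm38.p6) are named in the submitters' processing notes. No source used here gives strandedness or the index. Of 136288 transcripts, 136176 matched GENCODE M21 by identifier. PSI was computed from TPM as defined in the results. It rests on how Salmon divided reads between transcripts, not on junction reads, so it reflects every difference between including and skipping transcripts.

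PSI was tested with limma 3.58.1 (R 4.3.3) on the log2 logit, with 0.01 added to both parts, in 1 fit of the 6 groups (12 residual degrees of freedom), with a weight per population (0.348 for HSC, 1.35 for preMegE, 2.13 for pre-CFU-E). An undefined PSI was left out of an exon's fit, as for 69 exons. Because 3 libraries against 3 cannot give an exact permutation p below 0.1, no such test was used. Estimated counts were summed per gene, rounded and tested per population with edgeR 4.0.16 (quasi-likelihood, TMM, filterByExpr). Both tests were also run on simulated data with set changes, and the outcome is not reported here. For PSI those changes were put only into exons of middle PSI, so exons near either end of the range were not covered. The PSI fit shares its estimate of spread across populations.

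Exons are named 1 per gene: per knockout comparison, up to 10 called exons with the largest change, 5 TPM in both groups and no overlap, all that do so in 2 or more populations, up to 6 per control step, and from gene lists those with the largest totals or changes. Exons of a count of 7 or fewer, of low total, or that differed between populations were named after their values were seen. The exons and lists were chosen with earlier results of these data known. Alternatives changed the offset, scale, weights, TPM minimum, change minimum, transcripts counted, test, libraries and replicate block.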

Additional observations from a re-analysis of the deposited data

Results flagged for a closer look

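The knockout effect differed between populations for 3 exons, by limma's test of the difference itself, and they were chosen after their values were seen. For Mettl15, a mitochondrial rRNA methyltransferase gene, the exon at chr2:109240280-109240416 gives an early stop. Its PSI was 0% in all 3 control HSC libraries and 23.6, 7.97 and 16.3% in the knockouts, while preMegE had 10.7, 3.85 and 5.25% in the controls and 0% in all 3 knockouts. The difference between the effects was -22.6 points (limma adjusted p = 0.0253), at group totals of 4.31 to 6.3 TPM in these groups. HSC and preMegE also differ in Xist, as given above, so sex and cell type cannot be told apart in this difference. Its call was lost without any 1 control HSC library, knockout HSC replicate 3, or control preMegE replicate 1 or 3 (limma adjusted p up to 0.1). It was also lost from estimated reads in place of TPM (-42.2 points, limma adjusted p = 0.123) and with edgeR (adjusted p = 0.136).

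For Meis1, a homeobox gene of stem cells, skipping the exon at chr11:18941659-18941804 gives an early stop. PSI was 85.2, 75.3 and 81.5% in control pre-CFU-E and 100% in all 3 knockouts, a change of 19.4 points, against 3.9 points in preMegE. The difference was 15.4 points (limma adjusted p = 0.000895). The pre-CFU-E totals were 2.52 and 1.83 TPM, far under the 63.1 and 50.4 TPM of preMegE.

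For Tceanc2 the effect was 34.7 points in preMegE and -8.8 points in pre-CFU-E, a difference of -43.5 points (limma adjusted p = 0.00036) at totals of 6.24 to 8.79 TPM. The Meis1 and Tceanc2 differences were called in all 12 refits without 1 library, though neither passed on PSI without the logit (limma adjusted p = 0.206 and 0.144) or with edgeR (adjusted p = 0.107 and 0.189). From estimated reads the differences were 8.8 points for Meis1 and -9.1 points for Tceanc2 (limma adjusted p = 0.000973 and 0.00538), both under the 10-point minimum.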

How the results depend on the processing

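Counts of called exons are given in the order HSC knockout, preMegE knockout, pre-CFU-E knockout, control HSC to preMegE, control preMegE to pre-CFU-E, and the 2 tests of a difference in knockout effect (preMegE minus HSC, then pre-CFU-E minus preMegE). As reported they were 7, 5, 23, 108, 3, 1 and 2, and only counts that moved by over 1.5 times follow. With an offset of 0.05 the first 3 were 2, 12 and 35, and the first difference test gave 0. On PSI in percent without the logit they were 3, 17 and 48, the later control step gave 7 and the difference tests 0 and 4. Without array weights they were 44, 2 and 5, the control steps 275 and 1, and the first difference test 9. With only the populations compared in the fit, HSC gave 1 and preMegE 10. With a 20 TPM minimum HSC gave 4, pre-CFU-E 15 and the later step 1, and with a 1 TPM minimum HSC gave 11, preMegE 10, the later step 9 and the difference tests 2 and 7. When any intron spanning the exon counted as skipping, the first difference test gave 2. Estimated reads in place of TPM gave 9 in preMegE and 0 in both difference tests. With edgeR on including and skipping reads the counts were 11, 1 and 3 for the knockouts and 0 for the later step and both difference tests. A minimum change of 20 points gave 2 in preMegE, 15 in pre-CFU-E, 1 at the later step and 1 for the second difference test.

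Called genes that hold the exons numbered 1, 5 and 48 in HSC, preMegE and pre-CFU-E. They were 27 in HSC and 8 in pre-CFU-E with all 18 libraries in the fit, 7, 18 and 78 with DESeq2 1.42.0, and 21 in preMegE and 89 in pre-CFU-E without a filter on low counts. The tests did not pair control and knockout libraries of the same replicate number. Deviations of such libraries correlated at -0.0431 to 0.0257 for PSI and -0.0386 to 0.147 for genes. For genes in preMegE, control replicates 1 and 3 correlated best with the knockout of the same number (0.147 and 0.0896). These values therefore do not settle whether the libraries were paired. With a replicate block the first difference test called 3 exons, and 0 HSC and 106 pre-CFU-E genes were called. Leaving out 1 library gave 3 to 10, 2 to 10, 23 to 32, 48 to 101, 2 to 6, 0 to 8 and 2 to 7 exons, in the order above, and 0 to 1, 4 to 8 and 21 to 84 genes. Of the values for single exons, with refits without 1 library left out of the count, 6219 kept direction and side of the threshold. The call was lost by 170 and gained by 56. The 6219 include values that were not called as reported, so that count does not measure how stable the calls are. And 1 reversed: Tmem134 from control HSC to preMegE was 17.9 points when any spanning intron counted as skipping, in place of -12.1. The cause of these shifts was not tested. HSC libraries, at 15956408 to 19976170 reads, differed from their group by 8.02 to 11.63 points. For 2 knockout preMegE libraries with similar totals, 16412057 and 17545534 reads, the gaps were 3.81 and 5.08 points. These totals include mitochondrial rRNA, whose share differed between libraries, so similar totals do not mean similar depth for the exons. That share was largest in knockout HSC replicate 2, the library that differed most from its group. The part of depth or of rRNA share in these gaps was not tested.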
